A study of Mus musculus with 30 samples.

Results

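The insertion-poor windows are the 237 autosomal windows of 1 Mb with the fewest recorded transposon insertions in the livers of gene-therapy-treated Fah knockout mice. Sites were counted per window in each liver and expressed per 10000 autosomal sites of that liver, which is the density used throughout. Densities were averaged within the piggyBac (PB) livers and within the Sleeping Beauty (SB) livers, and both group means were then averaged. Of 2412 autosomal windows with a site in any liver, the first and last window with a site of each chromosome were left out (38 windows), the other 2374 were ranked, and the lowest 10% were taken. The windows make up 9.83% of all 2412. They were thus chosen by the measured density of both groups, so their low density is a description and carries no test.

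The series maps integration sites of therapeutic vectors in genomic DNA of whole livers by streptavidin-based enrichment sequencing, in which fragments next to a transposon end are amplified with a biotinylated primer. All mice carry the Fah knockout and were treated in vivo with a transposon vector, and DNA was taken when monitoring ended. The labels put 17 livers in the group treated with the PB system and 13 in the group treated with the SB system. The labels call the mice TT1, for tyrosinemia type I. Age, sex, strain, dose and treatment time are not given in the sources used here, and no untreated liver was analysed here.

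PB and SB are cut-and-paste DNA transposons: a transposase excises the vector between its terminal repeats and joins it to a short target, TTAA for PB and TA for SB. PB is known to favour open and transcribed chromatin, whereas SB is known for a nearly even spread over the genome. Fah encodes the last enzyme of tyrosine breakdown, and in mice that lack it hepatocytes with a restored gene are known to outgrow the others.

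PB livers held 16364 to 124238 sites and SB livers 4893 to 120220. In the insertion-poor windows these depths left 348 to 2725 sites per PB liver (median 1593) and 154 to 3777 per SB liver (median 2553). PB livers 13 to 17 were the shallowest of the PB group, with at most 40598 sites, and SB liver 13 was the shallowest of the SB group. SB liver 4 held 34929 sites. In SB liver 13 a single site equals a density of 2.14, so that its windows stand either at 0 or high. No insertion-poor window was empty in SB liver 11, and 134 of the 237 were empty in SB liver 13. Among PB livers between 1 (liver 5) and 66 (liver 16) were empty. Each site carries a whole number, taken as its reads and called support, whose smallest value was 3. Positions are those of the mouse build GRCm39. The annotation used for names belongs to another build, so whether the windows are gene deserts, and which genes, repeats or target motifs they hold, is not analysed here.

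The windows ran from a mean density of 0.116 to 1.49 with a median of 1.29, whereas the median over all ranked windows was 3.86. Most lay close to the limit: 136 had a density from 1.25 to 1.5 and 65 from 1 to 1.25, while 7 lay below 0.25. The 3 windows just inside the limit each had 1.49: the one starting at 71 Mb of chromosome 15 (PB 1.12, SB 1.87), at 47 Mb of chromosome 3 (PB 1.05, SB 1.93) and at 93 Mb of chromosome 7 (PB 1.39, SB 1.60). The first outside also had 1.49, at 54 Mb of chromosome 2 (PB 1.28, SB 1.70). The next lay on chromosome 1, at 141 Mb (PB 1.12, SB 1.89) and at 17 Mb (PB 0.969, SB 2.04). Windows on either side of the limit were thus close in density. Ranking by the odd-numbered livers alone and by the even-numbered livers alone gave 237 windows each, of which 176 (74.3% of each list) were the same. Ranking by PB alone and by SB alone shared 173 (73.0% of each list).

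The windows differed in how their sites were laid out. In 33 of them (13.9%) stretches of at least 50 kb without a site in any of the 30 livers added up to 100 kb or more, a limit set after the values were seen. Such stretches were present in 25 of the 2137 other ranked windows. In these 33 windows a median of 383 kb was site-free (140 to 835 kb), and a median of 41 of the 100 bins of 10 kb held a site. The other 204 had a median longest site-free stretch of 24.9 kb and sites in a median of 90 of 100 bins, so that they were thinly but continuously filled. All 24 windows below a density of 0.75 were of the site-free kind, against 3 of the 201 windows above 1. Fewer sites leave longer gaps, so this split is tied to density and is not separate from it. The 33 windows held 1676 PB and 1804 SB sites. How far these numbers alone account for the site-free lengths was not tested. In the windows with site-free stretches PB livers had a mean density per window of 0.416 ± 0.066 (SD, n = 17), and SB livers one of 0.592 ± 0.096 (SD, n = 13). In the continuously filled windows the densities were 0.998 ± 0.074 and 1.59 ± 0.19. What the site-free stretches are was not tested.

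**Figure D1:**
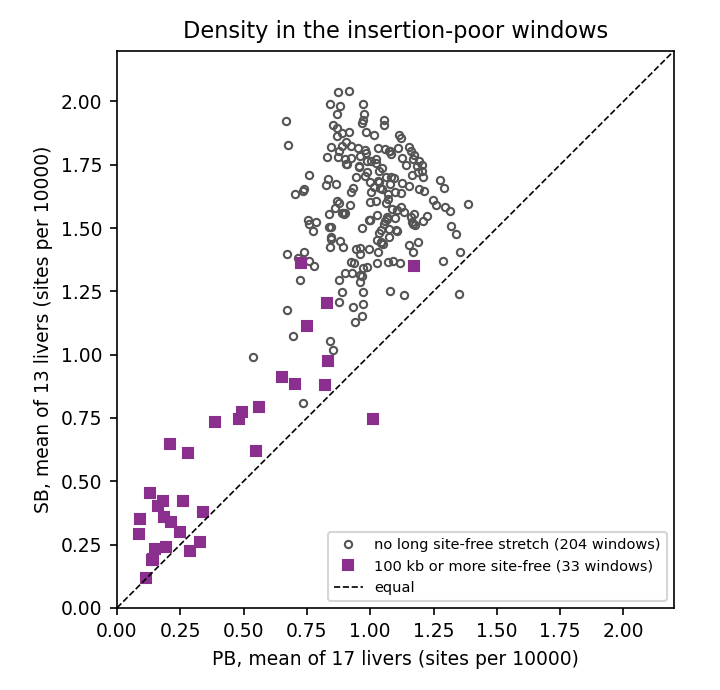
Mean density of PB livers (x axis, sites per 10000) against SB livers (y axis) in each of the 237 insertion-poor windows. Of the 204 continuously filled windows 203 lie above the line of equal density and 1 below it. The 33 windows with long site-free stretches (filled squares) start near 0, with 30 above that line and 3 below it.

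The poorest window of all was on chromosome 7 from 21 to 22 Mb. It held 10 sites over all PB livers and 12 over all SB livers, and 737 kb of it were site-free. PB densities ran from 0 to 0.634 with a median of 0, and SB densities from 0 to 0.611 with a median of 0.0989. The next, chromosome 7 from 22 to 23 Mb, held 17 PB and 19 SB sites, and chromosome 7 from 20 to 21 Mb, the eighth in rank, held 29 and 22. These 3 neighbours form 1 run with a mean density of 0.180 ± 0.124 in PB and 0.177 ± 0.136 in SB, a ratio of 0.981. Windows of chromosome 14 from 17 and 18 Mb held 12 and 16 PB sites and 21 and 19 SB sites. The window of chromosome 2 from 175 to 176 Mb had the longest site-free length, 835 kb, and sites in 14 of its 100 bins of 10 kb. The remaining windows among the poorest 10 start at 11 and 94 Mb of chromosome 5, at 42 Mb of chromosome 14 and at 32 Mb of chromosome 7, with densities of 0.218, 0.273, 0.222 and 0.273. In all 10 windows both groups had livers without a site, so single livers of the groups overlapped throughout.

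Insertion-poor windows were spread unevenly over chromosomes. Chromosome 14 had 27 of 121 ranked windows (22.3%), chromosome 7 had 24 of 140 (17.1%), chromosome 1 had 25 of 191 (13.1%), chromosome 6 had 19 of 145 (13.1%) and chromosome 12 had 15 of 115. Chromosome 19 had none of 57, chromosome 11 had 5 of 117 (4.27%) and chromosome 18 had 5 of 86. The windows with long site-free stretches were on 8 chromosomes. Chromosome 7 held 9 of them and chromosome 14 held 8, whereas the 25 windows of chromosome 1 and the 19 of chromosome 6 included none.

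Many insertion-poor windows lay side by side. Of the 237, 147 (62.0%) had an insertion-poor neighbour, and of the 2137 other ranked windows 262 (12.3%) did. The windows fell into 145 runs, of which 90 were single windows, 34 were pairs and 21 were of 3 windows or more. Those 21 runs held 79 windows. Of the 33 windows with site-free stretches 29 had an insertion-poor neighbour. A further 25 pairs of runs were parted by a single window.

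The longest run covered chromosome 1 from 110 to 118 Mb with 8 windows, all continuously filled. PB livers averaged 0.837 ± 0.152 over this run (0.479 to 1.22, median 0.811) and SB livers 1.47 ± 0.18 (1.12 to 1.86, median 1.47), 1.76 times as much. The lowest SB liver and the highest PB liver overlapped. The window before it had 1.15 in PB and 1.99 in SB, and the window after it 3.34 and 4.35.

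Chromosome 14 held the second longest run, 7 windows from 107 to 114 Mb, also continuously filled. PB livers stood at 0.902 ± 0.272 (0.540 to 1.76, median 0.878) and SB livers at 1.64 ± 0.30 (1.19 to 2.31, median 1.63), a ratio of 1.81. Windows below the median of all ranked windows extended around it from 101 to 118 Mb. The longest stretch below that median around any run was also on chromosome 14, from 80 to 100 Mb, where 11 of 20 windows were insertion-poor.

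The third run, chromosome 7 from 7 to 12 Mb, mixed both kinds, since 3 of its 5 windows had long site-free stretches. Its PB window means ran from 0.129 to 0.843 and its SB window means from 0.453 to 1.69. Among the 5 runs of 4 windows, the poorest was on chromosome 14 from 15 to 19 Mb, where all 4 windows had long site-free stretches. PB livers averaged 0.179 ± 0.102 there and SB livers 0.353 ± 0.244. It was sharply bounded on one side: the window before it had 7.96 in PB and 5.18 in SB. On chromosome 5 from 10 to 14 Mb, 1 of 4 windows had long site-free stretches, and the averages were 0.836 ± 0.244 and 1.28 ± 0.27.

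Density rose steeply within 2 windows of an insertion-poor window. In PB it was 0.917 ± 0.064 in the insertion-poor windows, 2.99 ± 0.05 in the 262 windows next to one and 4.20 ± 0.04 in the 199 windows at the second place. In SB the same places had 1.45 ± 0.18, 3.22 ± 0.13 and 4.13 ± 0.06. The SB to PB ratio of these means thus fell from 1.58 to 1.08 and 0.984 over 2 windows. Windows 6 or more places away had 4.86 in PB and 4.73 in SB. These windows are sorted by the same densities, so the profile is a description.

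**Figure D2:**
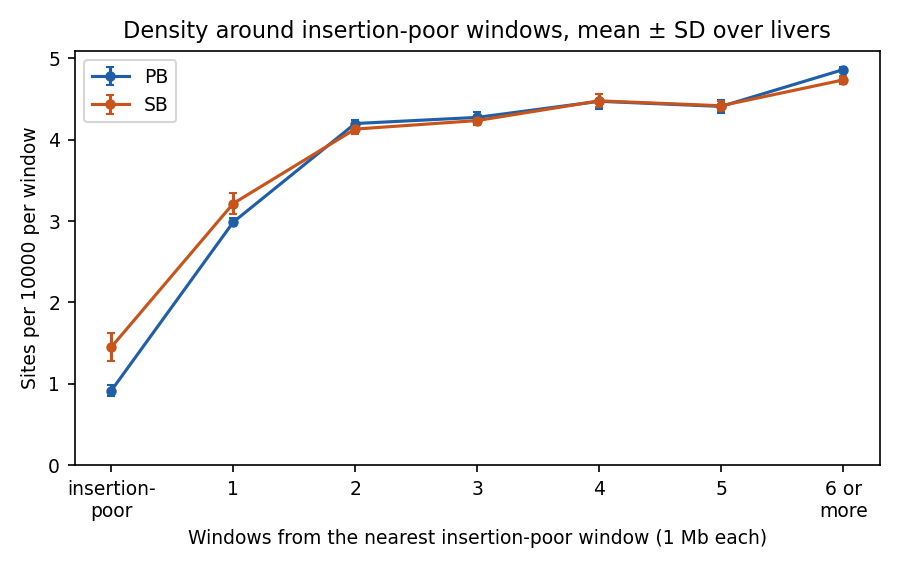
Mean density per window (y axis, sites per 10000, error bars are the SD over 17 PB or 13 SB livers) against the number of windows to the nearest insertion-poor window on the same chromosome (x axis). SB lies above PB in the insertion-poor windows (1.45 and 0.917) and the curves meet from the second window on.

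How far SB filled the windows in comparison with PB was asked next. Insertion-poor windows held 2.17% ± 0.15 of a PB liver's autosomal sites (SD, n = 17, 1.71% to 2.34%, median 2.21%) and 3.44% ± 0.42 of an SB liver's (SD, n = 13, 2.82% to 4.20%, median 3.30%). Every SB liver lay above every PB liver. Their density was 20.3% ± 1.4 of that of the other ranked windows in PB and 32.7% ± 4.1 in SB, so that SB was depleted there too, though less. PB livers 13 to 17 had a mean of 2.11% and SB liver 13 had 3.30%.

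Since these livers chose the windows, the share was tested in livers that took no part in the choice. Windows chosen in odd-numbered livers held 2.25% ± 0.12 of sites in the 8 even-numbered PB livers and 3.76% ± 0.35 in the 6 even-numbered SB livers. The SB share was 1.67 times the PB share (two-sided exact permutation test on log2 shares, p = 0.000333, the smallest that 3003 divisions can give). Windows chosen in even-numbered livers held 2.26% ± 0.19 in the 9 odd-numbered PB livers and 3.56% ± 0.59 in the 7 odd-numbered SB livers, a ratio of 1.56 (exact permutation test, p = 8.74e-05, the smallest that 11440 divisions can give). In both directions each SB liver lay above each PB liver. PB liver 15 was lowest of all at 1.80%. Since the groups separate fully, both p-values are fixed by the numbers of livers and do not measure the size of the difference.

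**Figure D3:**
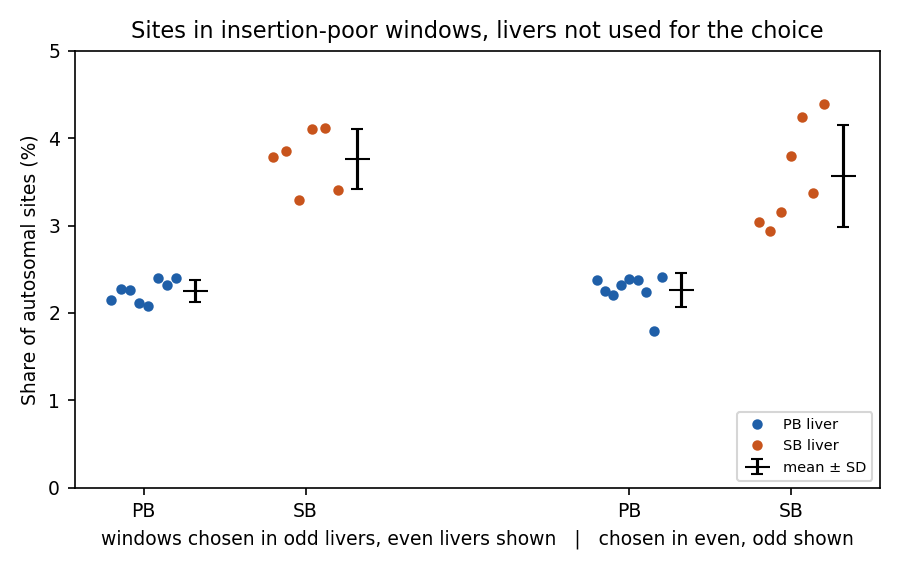
Share of autosomal sites in insertion-poor windows (y axis, percent), 1 point per liver, for livers that were not used to choose the windows, with mean and SD as bars. PB livers lie from 1.80% to 2.41% and SB livers from 2.94% to 4.39%.

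SB livers 7 to 12 had a higher share (3.72% ± 0.39, n = 6) than SB livers 1 to 6 (3.19% ± 0.29, n = 6), while the PB means of these numbers were 2.22% and 2.18%. The labels do not say how these livers differ. The SB to PB ratio was 1.70 in livers 7 to 12 for windows chosen in livers 1 to 6. It was 1.47 in livers 1 to 6 for windows chosen in livers 7 to 12 (exact permutation tests, p = 0.00216 each, the smallest possible with 924 divisions).

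The comparison changed when positions found in more than 1 liver of a group were left out. The ratio was then 1.11 in even-numbered livers (exact permutation test, p = 0.022) and 1.04 in odd-numbered livers (p = 0.487). This removal takes 40.4% ± 1.5 of PB sites outside the insertion-poor windows and 5.47% ± 0.94 inside them. In SB it takes 4.07% ± 0.18 and 0.949% ± 0.365. The PB share of insertion-poor windows thus rose, to 3.49% and 3.53%. How far the SB excess rests on reused PB positions elsewhere was not tested.

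The SB to PB ratio formed a gradient over all ranked windows. Deciles of windows ranked in odd-numbered livers had ratios of 1.67, 1.65, 1.45, 1.26 and 1.14 in even-numbered livers from the poorest to the fifth, and 0.761 in the richest. In the poorest decile PB had 0.951 ± 0.052 and SB 1.59 ± 0.15 sites per 10000 per window, and in the richest PB had 9.52 ± 0.21 and SB 7.25 ± 0.23. The poorest decile and the next thus had nearly the same ratio. In windows chosen in odd-numbered livers, SB exceeded PB in even-numbered livers in 226 of 237 (95.4%), against 1245 of 2137 other windows (58.3%).

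**Figure D4:**
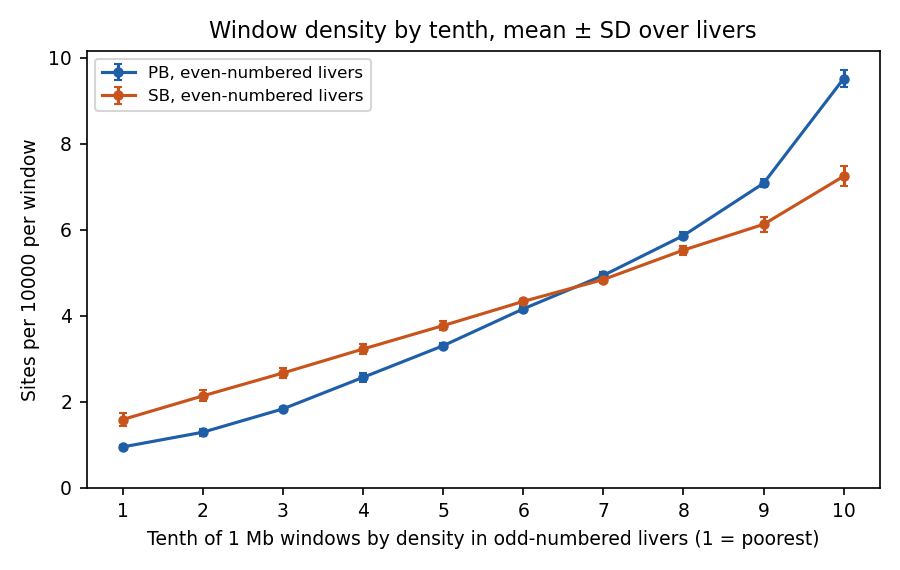
Mean density per window (y axis, sites per 10000, error bars are the SD over the even-numbered livers) in deciles of windows ranked by the odd-numbered livers (x axis, 1 is the poorest). SB lies above PB from the first to the sixth decile and below it from the seventh on.

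Single windows were compared by limma-voom over the nuclear windows that averaged 1 site or more a liver (2578, and 2575 in even-numbered livers), with total sites as library size. The windows were first chosen in one set of livers and fitted in the other. For windows chosen in odd-numbered livers, SB was higher in 128 of 235 tested in even-numbered livers (54.5%, limma, adjusted p under 0.05), against 26.3% of all windows in that fit. The median log2 difference (PB minus SB) was -0.73, and 226 of the 235 lay below 0. For windows chosen in even-numbered livers, SB was higher in 100 of 235 in odd-numbered livers (42.6%, against 23.2% of all windows), with a median log2 difference of -0.57. PB was higher in 0 of them in either fit, against 14% and 12.7% of all windows. At an unadjusted limma p under 0.05 the count was also 0, and no share of all windows was counted at that limit. Measured from the median window of each fit, 71 (30.2%, against 13.6% of all windows) and 64 (27.2%, against 12.6%) were higher in SB.

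The fit over all 30 livers uses the densities that chose the windows, so its counts are given as a description. Of the 237 windows 235 could be tested, and SB was higher in 182 (77.4%) and PB in 0, against 38.9% and 19.3% of all windows. At an unadjusted limma p under 0.05, 1 window was higher in PB, and edgeR's quasi-likelihood test called 179 and 0. Shares of all windows were not counted at that limit or with edgeR. The median log2 difference was -0.63, and -0.16 over all windows. Measured from that overall median, 122 were higher in SB (51.9%, against 23.2% of all windows) and 1 in PB (against 31.3%). Without positions found in more than 1 liver 2 were higher in SB and 1 in PB. The share of all windows called in that setting was not counted, so the drop cannot be read as particular to these windows.

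Both kinds of window are described by the same fit. Among the 204 continuously filled windows SB was higher in 172 (84.3%, against 38.9% of all windows), and in 115 (56.4%, against 23.2%) when measured from the overall median. Of the 31 tested windows with long site-free stretches SB was higher in 10 (32.3%, against 38.9%), and in 7 (22.6%, against 23.2%) when measured from the overall median, with PB higher in 1. The latter shares were thus near those of all windows in this fit. The median log2 differences were -0.64 and -0.44. In livers that took no part in the choice, the continuously filled windows were higher in SB in 121 of 203 (59.6%, even-numbered) and 98 of 204 (48%, odd-numbered). Those with long site-free stretches were so in 7 of 32 (21.9%, against 26.3% of all windows) and 2 of 31 (6.45%, against 23.2%). The latter hold fewer sites, which makes a call harder. Whether the kinds of window differ was not tested.

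By the log2 difference of the fit over all livers, which also chose the windows, the largest SB excess was on chromosome 14 from 110 to 111 Mb, inside the second longest run. PB livers had densities from 0.108 to 1.23 (median 0.751) and SB livers from 0.759 to 4.28 (median 1.88), so that single livers overlapped (log2 difference -1.25, SE 0.22, limma adjusted p = 4.35e-06). Chromosome 14 from 95 to 96 Mb followed with PB livers from 0 to 1.48 (median 0.861) and SB livers from 0 to 2.81 (median 1.93). Its log2 difference was -1.21 (SE 0.17, limma adjusted p = 5.45e-08), and it passed in every alternative run for it. These alternatives draw on the livers that chose the window, so they are no separate support.

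Chromosome 4 from 68 to 69 Mb had a mean of 0.735 ± 0.390 in PB livers (0 to 1.42, median 0.738) and of 1.64 ± 0.63 in SB livers (0 to 2.35, median 1.68), and its log2 difference was -1.15 (SE 0.20, limma adjusted p = 3.65e-06). Chromosome 1 from 123 to 124 Mb had 0.842 ± 0.503 in PB livers (0 to 1.61, median 0.966) and 1.99 ± 0.86 in SB livers (0 to 3.03, median 2.35), with a log2 difference of -1.13 (SE 0.23, limma adjusted p = 3.03e-05). Single livers of both groups overlapped in each. The window of chromosome 14 from 42 to 43 Mb is one of the 10 poorest, and 555 kb of it were site-free. It held 13 PB sites over 8 livers and 34 SB sites over 10 livers (log2 difference -1.20, SE 0.39, limma adjusted p = 0.00672). Of the 5 windows named here, those on chromosomes 1 and 4 and those from 110 and 42 Mb of chromosome 14 did not pass without positions found in more than 1 liver.

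At the other end stood chromosome 8 from 20 to 21 Mb, where PB livers had 0.442 to 1.48 (median 1.00) and SB livers 0 to 1.15 (median 0.846). The log2 difference was 0.41 (SE 0.20, limma adjusted p = 0.0628), and measured from the overall median it was 0.58 (limma adjusted p = 0.0105). This window has long site-free stretches, as do both neighbours in its run. Those neighbours, at 19 and 21 Mb, had higher SB means (1.20 against 0.830 and 0.913 against 0.652). A further 4 windows had log2 differences near 0 and did not pass. These start at 95 Mb of chromosome 5 (0.11, limma adjusted p = 0.772), at 20 Mb of chromosome 7 (0.07, p = 0.893), at 176 Mb of chromosome 2 (0.05, p = 0.883) and at 51 Mb of chromosome 8 (-0.05, p = 0.798). In the chromosome 2 window SB liver 13 alone stood at 4.28, which are 2 sites. The chromosome 8 window is the continuously filled one of the 4; its sign turned under several alternatives, and it was higher in PB without positions found in more than 1 liver (0.62, limma adjusted p = 0.00416).

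The spread of sites inside the windows was described next. The spread of counts over bins of 100 kb beyond counting error (extra-Poisson coefficient of variation within windows) was 0.258 for PB and 0.227 for SB in the continuously filled insertion-poor windows. In the insertion-poor windows with long site-free stretches it was 1.06 and 0.899, and in the other ranked windows, which keep their 25 such windows, 0.781 and 0.347. The densest 100 kb bin held a median of 14.7% of the sites of a continuously filled window. In windows with long site-free stretches it held 28.3%, and in other windows 20.4%. The largest of 10 bins exceeds 10% by counting error alone, and more so where sites are few. Of 2370 bins in the 237 windows, 18 were denser than the median bin of all ranked windows. SB alone occupied 30 bins and PB alone 19, and 50 held no site. The 237 windows held 31538 SB and 26145 PB sites, and bins of 1 group alone were not counted in other windows. The 30 and 19 are thus a description only.

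The densest bin lay on chromosome 4 from 42900001 to 43000000, with 52 PB sites in 16 livers and 45 SB sites in 11 livers. The second, on chromosome 11 from 34900001 to 35000000, had 42 PB and 27 SB sites in 12 livers each.

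Few positions were reused between livers in insertion-poor windows. Among 25338 PB positions 603 (2.38%) were seen in 2 livers or more, against 17.7% of positions elsewhere. For SB the numbers were 151 of 31365 (0.481%) and 2.01%. Fewer sites give fewer coincidences, so the pairs of sites of different livers that lie in the same window were counted per coincidence. This equals the number of equally used positions that a window would hold. It was 1280 per window in the insertion-poor windows and 590 elsewhere for PB, and 11778 and 9780 for SB. Per pair of sites, PB positions thus coincided less often there than elsewhere. Reused positions also add to the densities that chose the windows, so this is a description without a test. The SB value rests on 174 coincidences.

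Some positions recurred all the same. The PB position on chromosome 16 from 79255285 to 79255288 was found in 16 of 17 livers, always on the minus strand, with a support of 10 to 172 (median 35.5). On chromosome 8 from 21097539 to 21097542 a PB position was found in 8 livers, again always on the minus strand. By contrast, the PB positions on chromosome 13 from 86194440 to 86194443 (8 livers, 6 minus and 3 plus records) and on chromosome 11 from 34905569 to 34905572 (7 livers, 5 minus and 3 plus records) carried both strands, and the latter lies in the dense bin of that chromosome. Leaving out the 2 positions on a single strand in 8 or more livers raised the PB value to 1476 equally used positions per window. The most reused SB position was on chromosome 3 from 139701381 to 139701382, found in 4 livers, always on the minus strand.

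Sites in insertion-poor windows had slightly less support than other autosomal sites of the same liver. The ratio of median support was 0.959 in PB (mean log2 ratio -0.06 ± 0.04 SD, lower in 15 of 17 livers and equal in the other two, exact sign-flip permutation test, adjusted p = 0.000183). In SB it was 0.948 (mean log2 ratio -0.08 ± 0.04 SD, lower in 13 of 13 livers, exact sign-flip permutation test, adjusted p = 0.000488). The PB and SB ratios did not pass a test of their difference (permutation test, adjusted p = 0.269). The p-values here and for the strand are adjusted over 6 tests.

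The minus strand was over-represented in insertion-poor windows, a measure that had no part in their choice. It held 52.9% ± 1.5 of PB sites there and 50.9% ± 0.4 elsewhere, higher in 16 of 17 livers by 2.00 ± 1.22 percentage points (SD, exact sign-flip permutation test, adjusted p = 0.000183). In SB it held 52.6% ± 1.1 and 51.2% ± 0.8, higher in 11 of 13 livers by 1.40 ± 1.19 points (exact sign-flip permutation test, adjusted p = 0.00403). The excess was also present at positions found in a single liver, where the pooled minus share was 52.3% in PB and 52.6% in SB, against 51.2% and 51.0% elsewhere. It was graded over the genome: PB livers had 52.9%, 52.6%, 51.9% and 51.0% on the minus strand in the 4 poorest deciles of windows and 50.6% in the richest.

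The excess was seen among weakly supported sites. Sites with a support of 3 to 9 made up 12.4% ± 2.7 of PB sites in insertion-poor windows and 7.51% ± 2.18 elsewhere, higher in 17 of 17 livers. In SB they made up 11.7% ± 1.9 and 8.27% ± 1.51, higher in 13 of 13 livers. Of these weak sites 68.6% ± 8.2 in PB and 65.6% ± 9.4 in SB lay on the minus strand in insertion-poor windows, against 58.1% ± 5.4 and 57.1% ± 6.1 elsewhere. Among sites with a support of 10 or more the minus shares in insertion-poor windows were 50.7% ± 1.3 and 50.8% ± 1.7. The difference from other windows was then 0.335 points in PB and 0.159 in SB and did not pass (exact sign-flip permutation tests, p = 0.263 and 0.793). The support ratio in PB did not pass either when only such sites were counted (exact sign-flip permutation test, p = 0.514). The SB to PB ratio of shares moved little with that minimum, to 1.69 in even-numbered and 1.57 in odd-numbered livers.

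**Figure D5:**
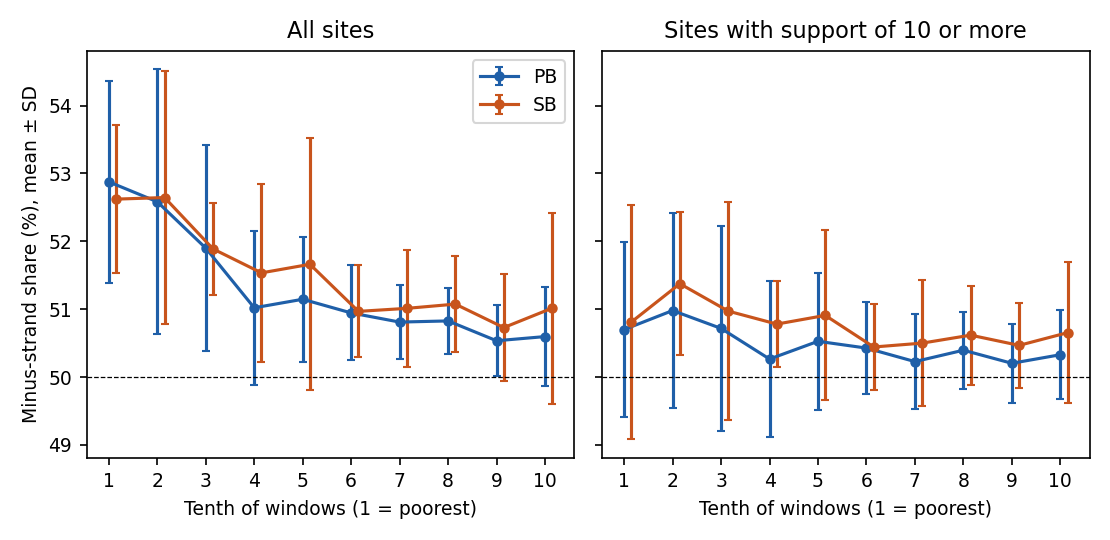
Minus-strand share of sites (y axis, percent, mean and SD over 17 PB or 13 SB livers) in deciles of windows ranked by density (x axis, 1 is the poorest), for all sites on the left and for sites with a support of 10 or more on the right. In the poorest decile the share is 52.9% in PB and 52.6% in SB for all sites, and 50.7% and 50.8% for the better supported ones.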

How the data were processed

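Integration sites were measured in 30 livers. Per the submitters' processing notes, cutadapt, BWA and GRCm39 were used; versions and filters are not given in the sources used here. Each deposited table lists sites by position, strand and a whole number, taken here as reads (support). The deposited merged tables give counts of records per position for livers 1 to 12. They equalled the livers' own tables at all 833852 PB and 925116 SB positions and were not used further.

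Sites were counted in 1 Mb windows. Windows were tested with limma 3.58.1 (voom) and edgeR 4.0.16 in R 4.3.3, Benjamini-Hochberg adjusted over all windows, and checked on simulated data. Other measures used Python 3.11.15 with numpy 2.4.6 and pandas 2.3.3, with exact permutation tests over livers or 100000 resamples. Reads were amplified without molecular identifiers, so support does not count molecules. The windows and measures were chosen with earlier results of these data known. Named are the 10 poorest windows, the 5 longest runs (ties by the lowest density), the 5 largest and 5 smallest log2 differences and 3 windows on either side of the limit. Positions and bins were named after their values were seen. Alternatives changed the livers, support minimum, reused positions, depth, window grid and size, limit, ranking, scaling, tool and pairing.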

Additional observations from a re-analysis of the deposited data

Results flagged for a closer look

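The share of sites in insertion-poor windows differed between the PB and SB groups by the test of that difference itself, with SB to PB ratios of 1.67 (windows chosen in odd-numbered livers) and 1.56 (chosen in even-numbered livers). PB liver 15 lay far from the other 8 odd-numbered PB livers, with 1.80% of its sites in windows chosen in the even-numbered livers. Such a distance was looked for in 8 groups of livers, and chance gives about 1 in 20.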

How the results depend on the processing

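The SB excess in insertion-poor windows kept its direction in every alternative run, with PB to SB ratios of the share from 0.572 to 0.898 (main value 0.600, windows chosen in odd-numbered livers) and from 0.580 to 0.958 (main value 0.640, chosen in even-numbered livers). Only without positions in more than 1 liver did a ratio not pass, at 0.958. That setting also left 2 windows higher in SB and 1 in PB, and TMM factors and centring on the median window each gave 1 window higher in PB. The share of all windows called was not counted without such positions or with TMM factors. Windows were also chosen in one set of livers and fitted in the other (added after the data were seen). This gave 128 windows higher in SB in even-numbered and 100 in odd-numbered livers, against 182 with all livers. Of all windows, 26.3%, 23.2% and 38.9% were higher in SB in these fits, in the same order. The fits of even-numbered and of odd-numbered livers hold fewer livers. After thinning to 4893 sites no insertion-poor window could be tested.

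Windows of 500 kb gave 477 insertion-poor windows, windows of 2 Mb 118, the lowest 5% 118 and the lowest 20% 474, by construction. The share with an insertion-poor neighbour was 49.1%, 43.2% and 73.2% with 2 Mb windows, the lowest 5% and the lowest 20%. The longest run was 5 Mb thinned or with the lowest 5%, and 4.5 Mb with 500 kb windows.

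With a support of at least 10 the minus-strand excess was 0.335 points in PB and 0.159 in SB and the PB log2 support ratio -0.0063. Thinned, the excess was 0.512 points in PB and 2.30 in SB, without passing. The PB minus SB difference of the excess turned to -0.084 in livers 1 to 12, -1.79 thinned and -0.0156 with the lowest 5%. That of support turned to -0.035 thinned and -0.0040 with sites within 10 bp merged. The gap in reused sites was -33.1 points in PB in livers 1 to 12, -33.1 with the lowest 20% and -7.43 thinned, and -0.18 in SB thinned. Among named windows, signs turned for chromosome 2 from 176 Mb (-0.17, limma-trend), chromosome 7 from 20 Mb (-0.0075, livers 1 to 12) and chromosome 8 from 51 Mb (0.062 limma-trend, 0.042 TMM, 0.11 centred, 0.62 without positions in more than 1 liver, 0.0095 merged). The cause of these changes was not tested.

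Liver numbers are shared by 13 pairs of livers, of which 1 correlated above 0.1 (-0.052 to 0.119), which gives no ground for pairing. Under the replicate block the ratios were 0.590 (6 of 6 pairs higher in SB, exact sign-flip p = 0.0312) and 0.655 (7 of 7, p = 0.0156). In that fit 193 insertion-poor windows were higher in SB, and the share of all windows called was not counted. The block left the share, support and strand differences on their side of the threshold. Alternatives that need a genome or annotation of GRCm39 were not run.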
